A study of Mus musculus with 6 samples.

Results

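The genes described here are 50 that encode the machinery of DNA replication and its S-phase regulators, taken by symbol from a table of 27179 mouse genes. All 50 were found in the table, and 47 passed the filter on low counts and were tested. Orc1, Cdc6 and Mcm10 did not pass it. The study compared cultures of satellite cells, which are the muscle stem cells, isolated from hindlimb muscle of C57BL/6 wild-type mice. The labels call the cells ageing and give no age. Both groups were grown in DMEM with 20% fetal bovine serum and basic fibroblast growth factor, and then received either recombinant human MG53 (rhMG53), a TRIM family protein of striated muscle known for membrane repair, or its vehicle, bovine serum albumin (BSA). Treatment lasted 72 h in every library. Each group had 3 libraries. The labels do not say which libraries came from separate mice or cultures, so a p here reflects the variation among 6 libraries, which may be technical.

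A cell copies its DNA once per division. In G1 the origin recognition complex, CDC6 and CDT1 load the ring-shaped MCM helicase on DNA. In S phase, CDC45 and the GINS complex join MCM to form the active helicase, primase and the polymerases make new strands, the sliding clamp PCNA holds the polymerases on DNA, and ligase joins the pieces. Many of these genes are transcribed under E2F transcription factors, which the retinoblastoma family restrains. Muscle precursors divide as myoblasts and leave the cell cycle for good when they differentiate and fuse, with the CDK inhibitor p21, encoded by Cdkn1a, rising at exit.

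Gene counts summed to 17374151 to 22738745 per library, and levels are given as CPM, the counts scaled to a total of 1000000. The cultures held differentiating muscle cells: the embryonic myosin gene Myh3 averaged 3558 RPKM (CPM per kilobase of exon) and the myogenic factor gene Myog 609 RPKM. The satellite cell marker Pax7 averaged 1.58 RPKM. It is 1 of 12 satellite cell and myoblast markers, of which 1 was too low to test. They went from 0.0135 RPKM for Calcr to 2129 RPKM for Des, with Myod1 at 238 RPKM, Cdh15 at 125 RPKM and Pax3 at 0.978 RPKM. These markers summed to 8738 to 9314 CPM with BSA and 9178 to 9550 CPM with rhMG53. Their median was 39.2 CPM, so the sum rests on its highest genes, with Des and Itga7 (418 RPKM) the highest per length. Its value as a measure of satellite cells was not tested. Endothelial markers summed to 1.73 to 2.46 CPM with BSA and 1.46 to 2.19 CPM with rhMG53, with 5 of 6 too low to test. Leukocyte markers summed to 6.26 to 7.74 CPM with BSA and 6.73 to 10.8 CPM with rhMG53, with 5 of 8 too low. Glial markers summed to 1.80 to 3.08 CPM with BSA and 2.84 to 3.18 CPM with rhMG53, with 3 of 5 too low. At an unadjusted p under 0.05 in edgeR, 1 leukocyte and 1 glial gene were higher and 1 endothelial gene lower, against 5.2% of all genes. Smooth muscle and pericyte markers summed to 223 to 275 CPM with BSA and 215 to 257 CPM with rhMG53, with 3 of 6 too low to test. In that list Abcc9 averaged 16.9 RPKM, Pdgfrb 15.5 RPKM and Notch3 4.06 RPKM. Myh11 averaged 0.0671 RPKM and Rgs5 0.0195 RPKM, and Kcnj8 was at 0 in every library. Fibroblast and fibro-adipogenic markers summed to 1187 to 1452 CPM with BSA and 1359 to 1449 CPM with rhMG53, with Lum and Pi16 too low to test. That sum includes Tcf4, at 18.4 RPKM, whose value as a marker of such cells was not tested. The part of these cells in the levels below was not tested.

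Replication genes were a small part of the RNA in both groups, and none of them differed between the groups past the threshold. Together the 50 genes took 0.0462% to 0.0495% of the counts of a library. Their sum was 485.5, 495.0 and 467.8 CPM in BSA replicates 1 to 3 and 474.4, 488.2 and 462.4 CPM in rhMG53 replicates 1 to 3, so the groups overlapped. In edgeR's quasi-likelihood test 0 of the 47 tested genes passed an adjusted p of 0.05, against 0.0218% of all 13769 genes tested. At an unadjusted p under 0.05 the count was 0 of 47, against 5.2% of all genes, and DESeq2 and limma voom also gave 0 at either threshold. The log2 fold change (rhMG53 over BSA) was below 0 for 27 genes, or 57.4%, against 49.5% of all genes, with a median of -0.04 beside 0.00 over all genes. In bulk RNA, fewer cells that make a transcript and less of it per cell cannot be told apart.

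**Figure D1:**
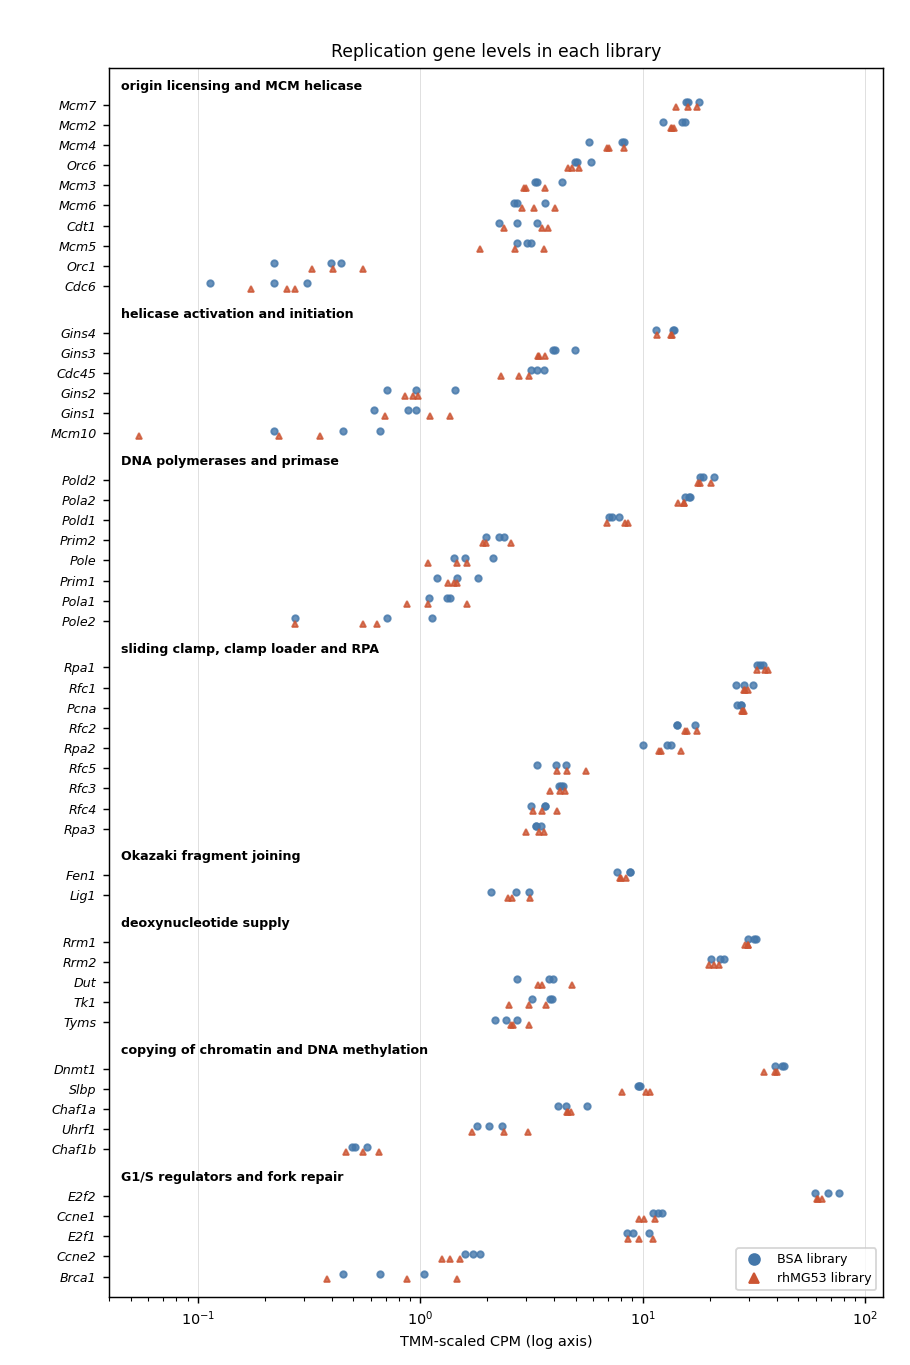
Level of each of the 50 replication genes in each library, in CPM scaled by TMM factors on a log axis, grouped by role. Circles are BSA libraries and triangles rhMG53 libraries. The 2 groups overlap for most genes, while the means of the genes run from 0.224 CPM for Cdc6 to 65.1 CPM for E2f2.

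Levels differed far more between the genes than between the groups. Per kilobase of exon, which allows levels to be compared between genes, they ran from 0.0467 RPKM for Cdc6 to 18.3 RPKM for Pcna, a 392-fold span, with a median of 1.88 RPKM beside 6.14 RPKM over the 13430 tested genes with a known exon length. In all, 18 were under 1 RPKM and 15 reached at least 5 RPKM. The 8 genes with most counts (E2f2, Dnmt1, Rpa1, Rrm1, Rfc1, Pcna, Rrm2 and Pold2) held 55.6% of all counts of the 50. After Pcna the highest levels were those of E2f2 (13.7 RPKM), Pold2 (11.5 RPKM), Rrm2 (9.77 RPKM) and Gins4 (9.59 RPKM). The lowest after Cdc6 were Mcm10 (0.0664 RPKM), Brca1 (0.124 RPKM) and Orc1 (0.130 RPKM). For scale, Cdkn1a stood at 1039 RPKM, 56.8-fold above Pcna, and the proliferation marker Mki67 at 0.109 RPKM. Levels per length depend on the transcripts that set the length. With lengths over all GENCODE transcripts of a gene, 21 of the 50 were lower by over 1.5 times, the median was 1.31 RPKM beside 4.22 RPKM over tested genes, 24 were under 1 RPKM and 7 reached 5 RPKM. E2f2 (13.3 RPKM) then came above Pcna (11.6 RPKM), Rrm1 was at 2.75 RPKM and Cdkn1a at 595 RPKM. Such values are called all-transcript values where they are given below.

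Promoter letters of the E2F type were found in some members at high and at low level and were not found in others. RefSeq promoter windows (GRCm38.p6, 250 bases before to 50 after a start) matched 42 of the 50 genes. The letters TTTCGCGC, TTTGGCGC, TTTCCCGC and TTTGCCGC, read on both strands, occurred in 31.4% of the 51 windows of these genes and in 2.26% of all 32851 windows. By gene this was 16 of 42, whose median level was 0.984 RPKM, beside 3.47 RPKM for the 26 without (0.811 and 2.03 RPKM as all-transcript values). Pcna, Pold2 and Rrm2 at the high end and Mcm10 and Brca1 at the low end had no match in their windows. The letters CCAAT, searched on both strands, occurred in 60.8% of the windows of these genes and 37.4% of all. The letters TTTGAA and TTCGAA, the cell cycle homology region type, occurred in 17.6% and 19.2%. A match describes the letters only, and its absence says nothing of the factor. The windows of E2f2 and Cdc6 are printed as the genes with the most and the fewest counts, and those of Mcm7 and Mcm6 as the highest and lowest of the MCM ring per length. They read 5′ to 3′ on the strand of the gene, with E2F-type letters in capitals.
E2f2 (chr4:136172024-136172323, plus strand): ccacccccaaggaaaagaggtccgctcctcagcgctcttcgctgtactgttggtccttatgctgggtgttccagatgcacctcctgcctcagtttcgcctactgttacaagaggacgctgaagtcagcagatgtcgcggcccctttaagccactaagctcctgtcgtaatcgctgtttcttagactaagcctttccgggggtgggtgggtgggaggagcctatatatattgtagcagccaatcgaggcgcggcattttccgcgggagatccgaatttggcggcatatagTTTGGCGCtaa
Cdc6 (chr11:98907901-98908200, plus strand): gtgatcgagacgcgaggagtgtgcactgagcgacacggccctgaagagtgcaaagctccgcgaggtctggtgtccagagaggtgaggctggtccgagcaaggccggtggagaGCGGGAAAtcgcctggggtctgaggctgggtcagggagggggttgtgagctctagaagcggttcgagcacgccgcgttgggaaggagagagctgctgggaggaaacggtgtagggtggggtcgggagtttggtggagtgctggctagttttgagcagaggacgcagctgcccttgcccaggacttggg
Mcm7 (chr5:138171834-138172133, minus strand): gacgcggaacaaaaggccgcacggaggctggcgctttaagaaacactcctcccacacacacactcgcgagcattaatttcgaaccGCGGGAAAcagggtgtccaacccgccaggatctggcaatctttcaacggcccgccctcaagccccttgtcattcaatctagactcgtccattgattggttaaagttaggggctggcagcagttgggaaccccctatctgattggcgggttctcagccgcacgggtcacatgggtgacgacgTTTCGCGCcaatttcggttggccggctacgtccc
Mcm6 (chr1:128359656-128359955, minus strand): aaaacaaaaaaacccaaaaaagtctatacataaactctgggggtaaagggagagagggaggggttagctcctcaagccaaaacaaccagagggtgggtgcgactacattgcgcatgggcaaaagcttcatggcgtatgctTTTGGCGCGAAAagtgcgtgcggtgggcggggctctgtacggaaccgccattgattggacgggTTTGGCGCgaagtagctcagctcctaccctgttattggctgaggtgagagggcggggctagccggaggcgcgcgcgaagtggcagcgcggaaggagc
Mcm6 had 3 matches, at -110, -106 and -47 from the start, of which the first 2 overlap in a shared GCGC. Mcm7 had matches at -165 and 17, Cdc6 at -138 and E2f2 at 40. Both Mcm7 and E2f2 have a further window in the table, without a match.

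Origin licensing genes were low and uneven. Mcm2 to Mcm7 encode a ring with 1 copy of each subunit, and their transcripts ran from 5.47 ± 0.457 RPKM (SD, n = 6 libraries) for Mcm7 to 0.729 ± 0.126 RPKM for Mcm6, a ratio of 5.85 to 9.72 within single libraries. The order was Mcm7, Mcm2, Mcm4, Mcm3, Mcm5, Mcm6 in 5 of 6 libraries, and the ranges of Mcm3 and Mcm5 and of Mcm5 and Mcm6 overlapped. As all-transcript values Mcm4 (2.05 RPKM) came above Mcm2 (2.0 RPKM), and Mcm7 (3.66 RPKM) was 5.35-fold above Mcm6. Mcm7 shares 10.8% of its exon length with Ap4m1 on the opposite strand, and the strand setting of the counting is not given, so reads of the overlap cannot be told apart. By library Mcm7 was at 15.7, 17.9 and 16.1 CPM with BSA and 17.5, 16.0 and 14.1 CPM with rhMG53 (-0.06 on the log2 scale, SE 0.100). The lowest library was thus an rhMG53 one, while the other 2 lay inside the BSA range.

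Of the 8 licensing genes tested, 3 had a positive and 5 a negative log2 fold change, from -0.20 to 0.23. Mcm3 had the lowest p of them. It was at 3.36, 3.28 and 4.34 CPM with BSA and 2.98, 2.94 and 3.65 CPM with rhMG53 (-0.20, 95% interval -0.59 to 0.19). The replication licensing factor gene Cdt1 was at 2.25, 2.71 and 3.35 CPM with BSA and 3.74, 3.54 and 2.38 CPM with rhMG53 (0.23, interval -0.25 to 0.72). For both genes the groups overlapped. Cdc6, which encodes the ATPase that loads MCM with CDT1, had 7, 2 and 4 counts with BSA and 5, 5 and 3 with rhMG53, and Orc1, the largest subunit of the origin recognition complex, had 10, 7 and 4 against 11, 6 and 7. Neither gene was tested. The other origin recognition subunits were far higher per length: Orc3 at 19.9 RPKM, Orc2 at 9.97 RPKM, Orc4 at 7.02 RPKM, Orc6 at 3.18 RPKM and Orc5 at 2.56 RPKM. Their all-transcript values were 7.50, 9.21, 4.43, 2.06 and 0.872 RPKM, so that Orc2 led, with Orc1 lowest at 0.112 RPKM.

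**Figure D2:**
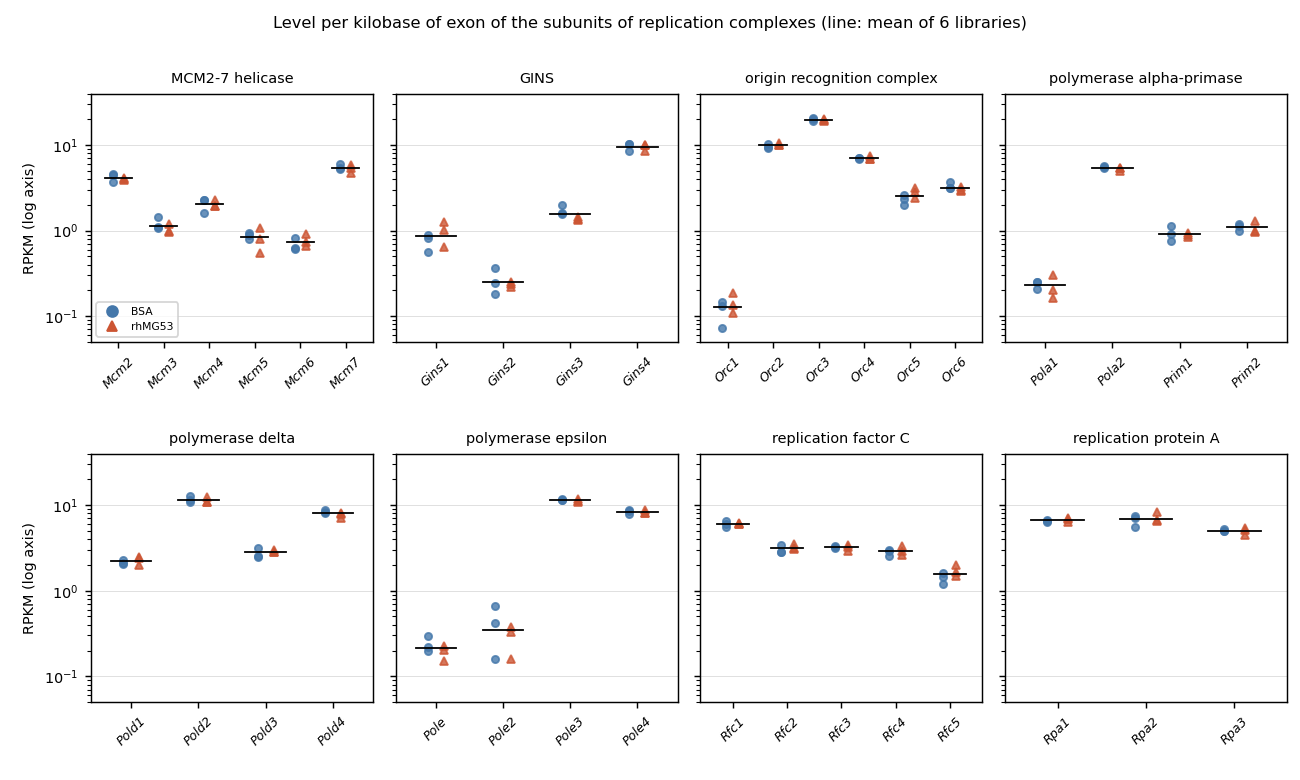
Level per kilobase of exon (RPKM, log axis) of the subunits of 8 replication complexes in each library; circles are BSA, triangles rhMG53 and lines the mean of 6 libraries. Subunits of the origin recognition complex, GINS and polymerase epsilon lie far apart, from 0.130 to 19.9, 0.251 to 9.59 and 0.217 to 11.5 RPKM, while those of RPA lie between 5.00 and 6.92 RPKM.

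Helicase activation genes had a negative log2 fold change in 4 of 5 tested cases. Groups did not overlap for 2 of them, beside 10.8% of all genes tested (4.83% lower). Gins3 (gene ID 78833, mm10 chr8:95633559-95645059), a GINS subunit, was at 4.02, 4.97 and 3.96 CPM with BSA and 3.43, 3.38 and 3.65 CPM with rhMG53 (-0.30, SE 0.155, interval -0.64 to 0.04). This was the lowest p of the 47 genes (adjusted p = 0.965 in edgeR). Every BSA library was above every rhMG53 library in Gins3. Cdc45 (gene ID 12544, mm10 chr16:18780447-18811972), the MCM partner at the fork, was at 3.36, 3.62 and 3.13 CPM with BSA and 3.08, 2.78 and 2.32 CPM with rhMG53 (-0.30, SE 0.171, adjusted p = 0.965 in edgeR). Here too the groups were separate, with the closest libraries at 3.13 and 3.08 CPM. The GINS subunits, which also enter their complex in equal numbers, kept the order Gins4, Gins3, Gins1, Gins2 in 6 of 6 libraries, with Gins4 23.1-fold to 56.6-fold above Gins2. Gins4 was at 13.8, 13.7 and 11.4 CPM with BSA and 11.6, 13.5 and 13.6 CPM with rhMG53 (-0.02, interval -0.26 to 0.22), so the groups covered nearly the same range. Gins2 shares 70.7% of its exon length with Gse1 on the opposite strand. Mcm10, needed for origin firing, had 25 counts over the BSA libraries and 12 over the rhMG53 libraries, in groups that overlapped.

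Polymerase genes varied by subunit. Catalytic subunits were low: Pole (leading strand) was at 0.217 RPKM, Pola1 (primer extension) at 0.229 RPKM and Pold1 (lagging strand) at 2.22 RPKM. Their accessory subunits were higher, with Pole3 at 11.5 RPKM, Pola2 at 5.41 RPKM and Pold2 at 11.5 RPKM. In polymerase epsilon Pole3 and Pole4 stood far above Pole2 and Pole, whose ranges overlapped, and in polymerase alpha-primase Pola2 was 17.8-fold to 30.8-fold above Pola1. With all-transcript values Pola2 was at 1.87 RPKM, 13.4-fold above Pola1, and Pole and Pole2 were at 0.139 and 0.207 RPKM. Of the 8 genes 7 had a negative log2 fold change. Pola2 was at 15.5, 16.3 and 16.1 CPM with BSA and 15.4, 15.4 and 14.4 CPM with rhMG53. The groups did not overlap, although the log2 fold change was -0.09 (interval -0.27 to 0.10). Pole was at 2.12, 1.41 and 1.59 CPM with BSA and 1.46, 1.09 and 1.62 CPM with rhMG53 (-0.31, interval -0.87 to 0.24), and Pole2 at 0.707, 1.13 and 0.275 CPM and 0.555, 0.272 and 0.638 CPM (-0.52, interval -1.59 to 0.55). Both pairs of groups overlapped, and Pole2 had 5 to 20 counts per library. Pold2 was at 18.1, 18.7 and 20.9 CPM with BSA and 17.8, 20.3 and 18.0 CPM with rhMG53 (-0.04, interval -0.24 to 0.16), again in overlapping groups.

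The genes of the sliding clamp, its loader and the single-strand binding protein RPA included Pcna, the highest member per length. E2f2 led instead in counts and in all-transcript values. Pcna (gene ID 18538, mm10 chr2:132249286-132253180), which encodes the clamp and also serves in DNA repair, was at 26.4, 27.7 and 27.6 CPM with BSA and 28.7, 28.4 and 27.9 CPM with rhMG53. The rhMG53 libraries were all higher, by 0.06 on the log2 scale (SE 0.0660, interval -0.09 to 0.20, adjusted p = 0.986 in edgeR). The 3 RPA genes, whose products bind DNA as a trimer, were at 6.92 RPKM (Rpa2), 6.68 RPKM (Rpa1) and 5.00 RPKM (Rpa3). Their all-transcript values were 4.19, 6.15 and 2.95 RPKM, so Rpa1 led and the highest stood 2.08-fold above the lowest, not 1.38-fold. The clamp loader genes went from Rfc1, the large subunit, at 6.08 RPKM to Rfc5 at 1.56 RPKM, and Rfc3 and Rfc2, and Rfc2 and Rfc4, overlapped in their ranges. As all-transcript values Rfc3 fell from 3.22 to 1.17 RPKM, below Rfc2 and Rfc4, and Rfc5 was at 0.936 RPKM. Of the 9 genes 7 had a positive log2 fold change, with a median of 0.06. Rfc5 was at 3.36, 4.52 and 4.07 CPM with BSA and 4.59, 5.56 and 4.12 CPM with rhMG53 (0.27, interval -0.11 to 0.64). Rfc2 was at 14.3, 17.2 and 14.3 CPM with BSA and 15.8, 17.5 and 15.5 CPM with rhMG53 (0.09, interval -0.13 to 0.32). In both, BSA replicate 2 lay among the rhMG53 libraries. Rfc5 shares 17.8% of its exon length with Wsb2 and Rfc2 19.1% with Lat2, each on the opposite strand.

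**Figure D3:**
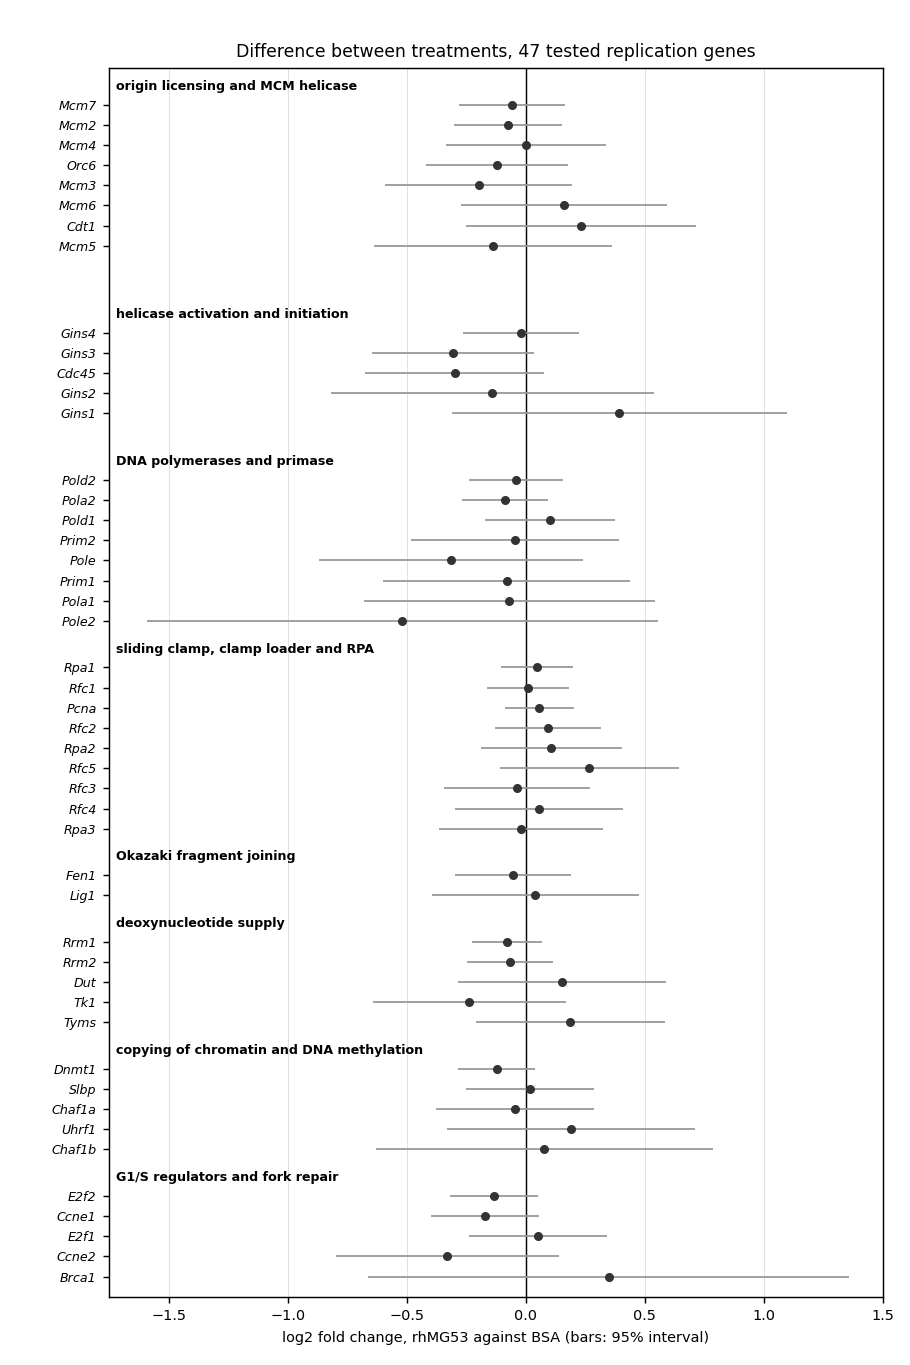
Log2 fold change of rhMG53 against BSA (points) with its 95% interval (bars) for the 47 tested replication genes, grouped by role. Every interval includes 0, and intervals widen from the genes with the most counts to those with the fewest.

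Genes that join Okazaki fragments were expressed at modest levels. Fen1, the flap nuclease, was at 8.75, 8.81 and 7.70 CPM with BSA and 7.93, 8.45 and 8.0 CPM with rhMG53 (-0.05, interval -0.30 to 0.19), and 86.6% of its exon length is shared with Gm10143 on the opposite strand. Lig1, the replicative ligase, was at 3.09, 2.09 and 2.69 CPM and 2.57, 3.11 and 2.49 CPM (0.04, interval -0.39 to 0.48). The groups overlapped for both genes.

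In deoxynucleotide supply the ribonucleotide reductase genes stood above the thymidylate genes with either set of lengths. Rrm2, the small subunit, was at 9.77 ± 0.591 RPKM (SD, n = 6 libraries) and Rrm1, the large one, at 7.58 ± 0.320 RPKM, with the p53-inducible small subunit gene Rrm2b at 4.09 ± 0.314 RPKM and the order the same in 6 of 6 libraries. Tk1, which salvages thymidine, was at 2.34 RPKM, Dut, which removes dUTP, at 1.71 RPKM, and Tyms, which makes thymidylate, at 0.819 RPKM. The all-transcript values put Dut (1.53 RPKM) above Tk1 (0.648 RPKM) and Tyms (0.425 RPKM), with Rrm2 at 7.73 RPKM and Rrm2b at 2.04 RPKM. By library Rrm2 was at 23.2, 22.4 and 20.2 CPM with BSA and 22.1, 19.9 and 20.9 CPM with rhMG53 (-0.07, interval -0.25 to 0.11). Rrm1 was at 29.7, 32.2 and 31.5 CPM with BSA and 29.8, 29.6 and 28.9 CPM with rhMG53 (-0.08, interval -0.23 to 0.07). Tk1 was at 3.85, 3.90 and 3.19 CPM and 3.69, 2.51 and 3.07 CPM (-0.24, interval -0.64 to 0.17). For Rrm1 the groups met at the lowest BSA and the highest rhMG53 library, and the other 2 overlapped more widely.

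Among genes that copy chromatin, Dnmt1, the maintenance DNA methyltransferase, stood at 6.36 RPKM and its partner Uhrf1, which brings it to newly copied DNA, at 0.606 RPKM. By library Dnmt1 was at 43.2, 42.3 and 39.4 CPM with BSA and 40.3, 35.2 and 39.4 CPM with rhMG53 (-0.12, interval -0.28 to 0.04). Uhrf1 was at 2.34, 1.81 and 2.03 CPM and 1.72, 3.05 and 2.38 CPM (0.19, interval -0.33 to 0.71). The rhMG53 values of Uhrf1 lay on both sides of the BSA range. The histone chaperone genes Chaf1a and Chaf1b were at 0.852 and 0.282 RPKM, beside 57.5 RPKM for Rbbp4, a subunit they share with other chromatin complexes (0.532, 0.116 and 29.0 RPKM as all-transcript values). Chaf1a has 48.6% of its exon length in common with Ubxn6 on the opposite strand. Slbp, which binds the stem-loop of replication-dependent histone mRNA, was at 5.10 RPKM, or 1.6 RPKM as an all-transcript value, and its log2 fold change was 0.02 (interval -0.25 to 0.29).

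E2f2 (gene ID 242705, mm10 chr4:136172274-136196057) had the most counts of all 50 genes. It encodes an activator E2F and was at 68.4, 76.2 and 59.7 CPM with BSA and 64.2, 61.2 and 60.7 CPM with rhMG53. The BSA libraries spanned the rhMG53 ones (-0.13, SE 0.0845, interval -0.32 to 0.05). Without BSA replicate 3, the lowest BSA library, the log2 fold change was -0.22 with an unadjusted p of 0.0126 (adjusted p = 0.789 in edgeR), the only member under 0.05 when any library was left out. Per length E2f2, at 13.7 ± 1.33 RPKM, exceeded the other activators E2f3 (5.02 ± 0.333 RPKM) and E2f1 (3.05 ± 0.354 RPKM) without overlap (SD, n = 6 libraries), and lay below E2f4 (27.8 RPKM) and E2f6 (28.5 RPKM), which mostly act as repressors. As all-transcript values E2f2 (13.3 RPKM) came above E2f6 (12.5 RPKM) and stayed below E2f4 (22.6 RPKM). Ccne1, a cyclin that drives entry into S phase with CDK2, was at 11.1, 11.7 and 12.3 CPM with BSA and 9.59, 10.2 and 11.4 CPM with rhMG53 (-0.17, interval -0.40 to 0.06). Its paralog Ccne2 was at 1.72, 1.86 and 1.59 CPM and 1.36, 1.25 and 1.51 CPM (-0.33, interval -0.80 to 0.14), in groups that did not overlap. Ccne2 shares 19.0% of its exon length with Ints8 on the opposite strand. Brca1, which protects and repairs stalled forks, had 7 to 29 counts per library (0.35, interval -0.66 to 1.36).

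**Figure D4:**
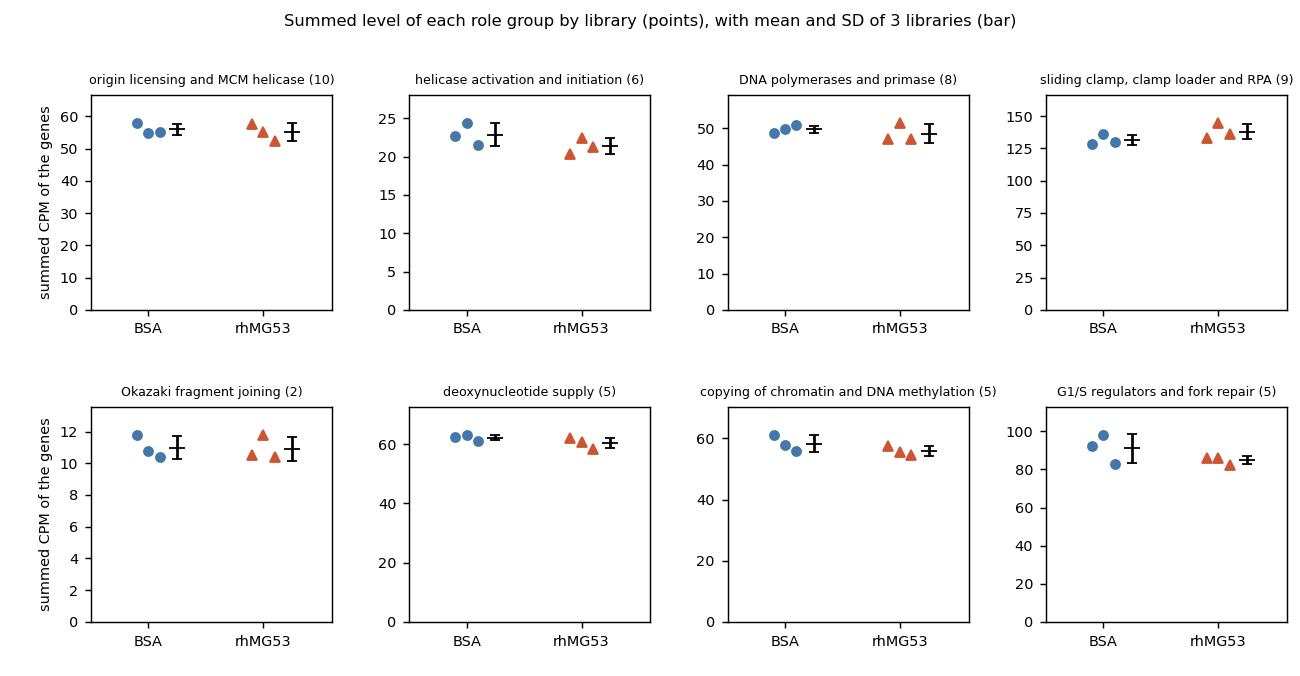
Summed CPM of the genes of each role group in each library (points; the number of genes is in brackets), with the mean and SD of 3 libraries (bars), on axes that start at 0. In all 8 groups the BSA and rhMG53 libraries overlap; the sums of clamp, loader and RPA genes are 131.5 with BSA and 138.0 with rhMG53.

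In all, groups did not overlap for 5 of the 47 genes, or 10.6%, against 10.8% of all genes. Pcna was higher, and Gins3, Cdc45, Pola2 and Ccne2 were lower, against 5.94% and 4.83% of all genes in these directions. That share is near the background and is not a result about these genes. The data bound the differences more tightly for abundant genes: the SE of the log2 fold change was 0.0660 to 0.134 for the 15 genes averaging 10 CPM or more and 0.213 to 0.487 for the 9 under 2 CPM. The 95% interval lay wholly inside a 1.25-fold change either way for 15 genes, inside a 1.5-fold change for 27 and inside a 2-fold change for 44. The intervals of Gins1, Pole2 and Brca1 reached past 2-fold.

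Other genes of the replication and cell cycle pathways were taken from lists, and none of their members passed in edgeR. Of 31 tested further replication factors 22 had a negative log2 fold change, against 49.5% of all genes, with a median of -0.09. An unadjusted p under 0.05 was reached by 1 of the 31, against 5.2% of all genes. That gene was Rif1, a regulator of replication timing, at 17.8, 17.5 and 13.7 CPM with BSA and 13.6, 12.8 and 14.3 CPM with rhMG53 (-0.27, SE 0.111, adjusted p = 0.946). BSA replicate 3 lay inside the rhMG53 range. Atad5, which unloads PCNA, was next (-0.40, SE 0.218). Of 20 other nucleotide synthesis genes 10 were positive and 10 negative, and Dck, the deoxycytidine salvage kinase, had the lowest p. Dck was at 4.77, 4.75 and 4.95 CPM with BSA and 3.84, 3.71 and 3.77 CPM with rhMG53 (-0.35, SE 0.133, adjusted p = 0.946 in edgeR), without overlap. Mthfd2, a mitochondrial folate enzyme gene, followed (0.17, SE 0.0869). In that list an unadjusted p under 0.05 was reached by 1 gene, against 5.2% of all genes. Groups did not overlap for 1 lower and 2 higher genes of the list, against 10.8% of all genes.

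Of 19 tested checkpoint and fork repair genes 11 were negative (median -0.03), and 1 had an unadjusted p under 0.05. The shares over all genes, for this list and the next ones, were 49.5% negative and 5.2% under that p. The recombination gene Rad54l, at 1.11, 1.02 and 1.15 CPM with BSA and 0.606, 0.817 and 0.696 CPM with rhMG53, had the lowest p (-0.63, SE 0.265, adjusted p = 0.948 in edgeR). Fanca, of the Fanconi anemia pathway, followed (-0.39, SE 0.283). In the E2F, pocket protein and DREAM list (14 tested, 9 negative) the lowest p were those of E2f5 (0.22, SE 0.168) and E2f3 (-0.08, SE 0.0798). Chromatin assembly genes were positive in 9 of 13 cases, led by p by the histone variant gene H2ax (0.21, SE 0.136) and by Tonsl (-0.28, SE 0.198), and 0 of them had an unadjusted p under 0.05. The cyclin, CDK and CDK inhibitor list had a positive sign in 10 of 17 genes, with the INK4 inhibitor genes Cdkn2a (0.17, SE 0.0705) and Cdkn2c (0.17, SE 0.0942) at the lowest p. An unadjusted p under 0.05 in edgeR was reached by 1 of its genes, which was higher, and by 0 of the E2F list. Groups did not overlap for 2 genes of the cyclin list, both higher, against 5.94% higher of all genes. They did not overlap for 2 checkpoint genes, 1 chromatin assembly gene and 1 further replication factor, all lower, against 4.83% lower. In the E2F list that count was 0. Ccnd3, which encodes a D-type cyclin kept in muscle cells, averaged 238 RPKM and Cdk2 18.0 RPKM (61.1 and 6.96 RPKM as all-transcript values), while the S and G2 genes Ccna2 and Cdk1 were at 0.348 and 0.494 RPKM.

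Mitosis and G2/M genes were lower still per length than replication genes, with a median of 0.335 RPKM over 29 genes (0.195 RPKM as all-transcript values). Of the 22 tested 16 had a negative log2 fold change, against 49.5% of all genes. The median was -0.27, beside -0.04 for the replication genes, and no test of that difference was made. An unadjusted p under 0.05 was reached by 1 higher and 2 lower genes, against 5.2% of all genes. Groups did not overlap for 4 genes, all lower, against 4.83% lower and 10.8% in either direction over all genes. Their sum was 39.1, 38.1 and 39.7 CPM with BSA and 33.9, 36.2 and 34.1 CPM with rhMG53. These groups did not overlap, unlike the sums of the replication genes. The sums of the other nucleotide synthesis genes were also apart, but higher with rhMG53. Those were 746.8, 751.6 and 755.4 CPM with BSA and 767.6, 775.0 and 765.9 CPM with rhMG53. How often sums of lists are apart was not tested. The kinetochore motor gene Cenpe (-0.88, SE 0.325, adjusted p = 0.940) and Ect2, needed for cytokinesis (-0.58, SE 0.244, adjusted p = 0.947), had the lowest p of the mitosis and G2/M genes in edgeR. Both were low, at 0.0874 RPKM for Cenpe and 0.289 RPKM for Ect2 (0.0802 and 0.221 RPKM as all-transcript values).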

How the data were processed

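Per the submitters' processing notes the build was mm10 and the tools were STAR, featureCounts and edgeR. No source used here gives their versions, the annotation or the strand setting. Raw read counts for each gene were deposited by the authors, from poly(A)-selected RNA made into directional libraries, per the labels' protocols.

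Of 27179 gene IDs, RefSeq (GRCm38.p6, the assembly of mm10) named 25275 and GENCODE M21 named 18 more. Genes were kept with filterByExpr (minimum count 10, minimum total 15), scaled with TMM and fitted in edgeR 4.0.16 (R 4.3.3; glmQLFit and glmQLFTest) over all 6 libraries, with treatment as the only term, 2-sided, with Benjamini-Hochberg adjustment over 13769 genes. The script was tested on simulated data. SE is the size of the log2 fold change over the square root of F. CPM values of single genes use TMM-scaled totals, sums use plain totals, and RPKM divides CPM by exon length over GENCODE transcripts linked to RefSeq records. Near-identical copies can share reads. Beside the overlaps given above, Pole2 shares 14.4% of its exon length with Gm49384 and Rpa1 0.856% with Gm47300 on the same strand. On the opposite strand the shares are 19.9% for Slbp, 13.4% for Rfc4, 11.9% for Orc1 and 7.89% for Cdc45. They are 7.14% for Orc6, 6.17% for Lig1, 5.76% for Tk1 and 1.09% for Pole, and Mcm7 shares 2.16% with Cops6.

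The genes, lists and tests were chosen with earlier results of these data known. Genes shown by library are, in each role, the 2 with the lowest p and the highest per length, and those whose groups did not overlap. From every other cell cycle list the 2 with the lowest p are named. Other genes named as scale, by counts or as subunits were chosen after their values were seen. Alternatives were other scaling (RLE, upper quartile, library size), filters, DESeq2 1.42.0, limma 3.58.1 voom, robust moderation, the replicate number as a term and leaving out each library.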

Additional observations from a re-analysis of the deposited data

How the results depend on the processing

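No replication gene passed the adjusted threshold under any of the 15 alternatives. The median log2 fold change of the tested members stayed between -0.05 and -0.03 under the 9 other fits and between -0.06 and -0.02 when a library was left out. The count of members at an unadjusted p under 0.05 was 0 to 1 when a library was left out. Members whose groups did not overlap numbered 2 with a mean of at least 5 CPM, where 21 members were tested (9.52%, beside 10.4% of all genes), and 7 to 14 when a library was left out (14.9% to 29.8%, beside 18.6% to 24.0% of all genes). The 14 came without BSA replicate 3, where the share over all genes was 24.0%. Over all genes the calls were 3 in the reported fit, 6 with no filter beyond a total count of 1, 5 with DESeq2, and 0 to 4 when a library was left out, with 0 without BSA replicate 2.

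Same-numbered libraries deviated from their group means with correlations of 0.19, -0.13 and -0.15. Over all pairs of a BSA and an rhMG53 library the correlations ran from -0.22 to 0.30. With 3 libraries per group such values cannot decide whether the numbers pair libraries, so pairing is unknown. With the replicate block, 0 genes were called over all genes and 0 members, and the median of the members was -0.04. Of the 23 members given by library, 18 kept their sign under every alternative that gave them a value, 15 for 9 of them and 14 for the other 9, which were too low for the 5 CPM filter. The others turned only when a library was left out: Gins4 (-0.10 to 0.053), Lig1 (-0.092 to 0.19), Mcm7 (-0.14 to 0.016), Pold2 (-0.10 to 0.022) and Uhrf1 (-0.032 to 0.39), and the cause was not tested. Lengths over all GENCODE transcripts, an alternative chosen after seeing the data, lowered 21 of the 50 members by over 1.5 times, and the values are beside the levels. Fold changes do not depend on length. Few counts per library limit the precision of low members.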
